A study of Rattus norvegicus with 28 samples.

Results

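The platelet-derived growth factor (PDGF) family and the angiopoietins are described here through 8 genes taken by name from the table of expression values: the ligands Pdgfa, Pdgfb, Pdgfc and Pdgfd, the receptors Pdgfra and Pdgfrb, and the angiopoietins Angpt1 and Angpt2. They are 8 of 30178 genes in the table, and all 8 are listed in it. The study asked how methionine restriction and the homeobox gene Hoxc8 bear on the response of kidney fibroblasts to transforming growth factor β (TGF-β). It used NRK-49F, an established fibroblast line from rat kidney, and RNA-seq of polyadenylated RNA was made from 8 of its 28 samples, 2 libraries in each of 4 groups. The other 20 samples, chromatin immunoprecipitation and input, are not analysed here.

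The labels give 10% serum for growth in every group, and cells of every group were starved for 24 h in 0.2% serum beforehand. The control group is labelled as control with no agent and no time. The TGF-β group received TGF-β1 for 48 h, at 5 ng per uL in the unit the labels print. The MetR group received TGF-β for 48 h in methionine-restricted medium with dialyzed serum, with methionine at 30 uM where its own control medium has 200 uM. The siHoxc8 group received TGF-β for 48 h together with a small interfering RNA against Hoxc8. No RNA-seq library is labelled with a control siRNA, and the labels do not give the medium of the other groups, so loss of the target cannot be told apart from transfection, nor low methionine from the rest of its medium. All results come from 1 cell line, and nothing in the labels says that the libraries of a group are separate cultures. The p-values therefore rest on the spread from library to library, which may be technical.

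PDGF ligands are secreted dimers that make their receptor tyrosine kinases pair and phosphorylate each other, and in the kidney they act mainly on fibroblasts, pericytes and mesangial cells, where they drive division, migration and matrix production. PDGF-A and PDGF-C signal mainly through the α receptor encoded by Pdgfra, PDGF-B binds both receptors, and PDGF-D acts mainly through the β receptor encoded by Pdgfrb. PDGF-C and PDGF-D are secreted in a latent form and must be cleaved before they can bind. Angiopoietin 1, made by perivascular and stromal cells, activates the receptor Tek on endothelial cells and stabilises vessels, and angiopoietin 2 often opposes it.

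The 250 bases before the start of transcription are shown for the receptor Pdgfra and for Pdgfa and Pdgfc. Pdgfa and Pdgfc are the detected ligands that signal mainly through that receptor. In level, Pdgfra set siHoxc8 apart from the other treated groups and Pdgfa set MetR apart, while Pdgfc varied less. Sequences are from RefSeq on build GRCr8, which held such a region for 5 of the 8 genes, and read 5′ to 3′ on the strand of the gene. There were no entries for Pdgfrb, Angpt1 and Angpt2. Capitals mark matches on either strand to the AP-1 motif TGANTCA, the Smad box CAGAC, the Hox core TAAT or the GC box GGGCGG.
Pdgfra (chr14:33408517-33408766, minus strand): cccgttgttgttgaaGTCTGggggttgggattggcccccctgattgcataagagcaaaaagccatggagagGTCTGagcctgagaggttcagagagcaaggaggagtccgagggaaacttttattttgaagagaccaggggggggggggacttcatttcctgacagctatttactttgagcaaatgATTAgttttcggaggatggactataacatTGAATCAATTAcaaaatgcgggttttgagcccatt
Pdgfa (chr12:20759116-20759365, plus strand): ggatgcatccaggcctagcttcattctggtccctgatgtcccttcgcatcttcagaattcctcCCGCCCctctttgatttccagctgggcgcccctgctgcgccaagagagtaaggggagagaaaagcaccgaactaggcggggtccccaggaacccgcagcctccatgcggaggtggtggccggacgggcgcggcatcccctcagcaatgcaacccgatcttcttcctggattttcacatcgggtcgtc
Pdgfc (chr2:168614918-168615167, plus strand): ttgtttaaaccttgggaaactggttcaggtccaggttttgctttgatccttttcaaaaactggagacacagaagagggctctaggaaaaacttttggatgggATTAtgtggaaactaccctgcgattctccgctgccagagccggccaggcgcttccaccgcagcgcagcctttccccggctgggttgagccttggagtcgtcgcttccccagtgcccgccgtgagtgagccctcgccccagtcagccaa

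The Pdgfra sequence was 47.2% G and C with 4 CpG dinucleotides, against medians of 52% and 6 over all promoters of the same length. The ligand promoters were richer, with 60.8% and 15 CpG for Pdgfa and 56% and 12 CpG for Pdgfc. In Pdgfra an AP-1 match began 35 bases before the start, and a Hox core match began directly after it, 28 bases before the start, without overlap. The other matches in Pdgfra were a Hox core at 64 bases and Smad boxes at 235 and 179 bases before the start. Pdgfa held a GC box at 187 bases, Pdgfc held a Hox core at 148 bases, and the TATA box TATAAA was in none of these regions. Of 27457 promoters of this length, 6.36% held the AP-1 motif, 42.8% the Smad box, 56.3% the Hox core, 32.4% the GC box and 13.1% the TATA box, so a match to most of these letters is common. The matches are descriptions of the sequence, and binding was not measured here.

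Expression is given as FPKM, fragments per kilobase of gene, scaled to library size, which is also scaled to gene length so that levels of different genes can be set side by side. Between 15118113 and 20146870 reads per library could be recovered from the values. Hoxc8 itself, the target of the siRNA, was at 1.12 and 1.34 FPKM in control, 4.32 and 5.01 with TGF-β, 0.417 and 0.614 with MetR, and 0.463 and 0.0771 with siHoxc8, and it was lower in both siHoxc8 libraries than in either TGF-β library. Both combined treatments held it below TGF-β alone, by -1.90 ± 0.19 with MetR and -2.17 ± 0.19 with siHoxc8 (log2 fold change ± SE, limma adjusted p 0.000272 and 0.000182). Of the fibroblast markers Col1a1 was at 2787.7 to 5627.4 FPKM and Vim at 1992.3 to 6204.3 FPKM, but Dcn did not exceed 1.08 FPKM and Thy1 was listed at 0. The 8 endothelial markers summed to 0.0974 to 0.934 FPKM with Kdr, Tie1 and Cldn5 listed at 0. The 8 pericyte and smooth muscle markers summed to 2.52 to 5.1 FPKM with Rgs5, Kcnj8 and Abcc9 listed at 0. Acta2, a smooth muscle actin gene outside this list, was at 12.46 and 11.25 FPKM in control and at 527.1 and 550.5 with TGF-β. It was at 47.3 and 29.2 FPKM with MetR and at 24.3 and 21.6 with siHoxc8. The 7 epithelial markers summed to 0.233 to 0.809 FPKM outside the MetR group and to 3.05 to 4.01 FPKM within it, where Cdh16 was at 2.53 to 2.76 FPKM and Pax8 at 0.272 to 0.739, with Epcam and Umod listed at 0. The 7 leukocyte markers summed to 18.1 to 56.1 FPKM, mostly Cd14, with Ptprc at 0.0196 FPKM at most.

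Of the 8 genes, 5 were expressed at 1 FPKM or more in all 8 libraries (Pdgfa, Pdgfc, Pdgfra, Pdgfrb and Angpt1), and 3 reached that level in none (Pdgfb, Pdgfd and Angpt2). The NRK-49F cells therefore carried RNA for both PDGF receptors and for the A and C ligands. Pdgfc was the most abundant of the 8 in every group mean, above 86.7% to 91.1% of all tested genes. The other 4 detected genes moved through the ranking with treatment, from the 18.7th percentile for Angpt1 with TGF-β to the 86.1st for Pdgfa with MetR.

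**Figure D1:**
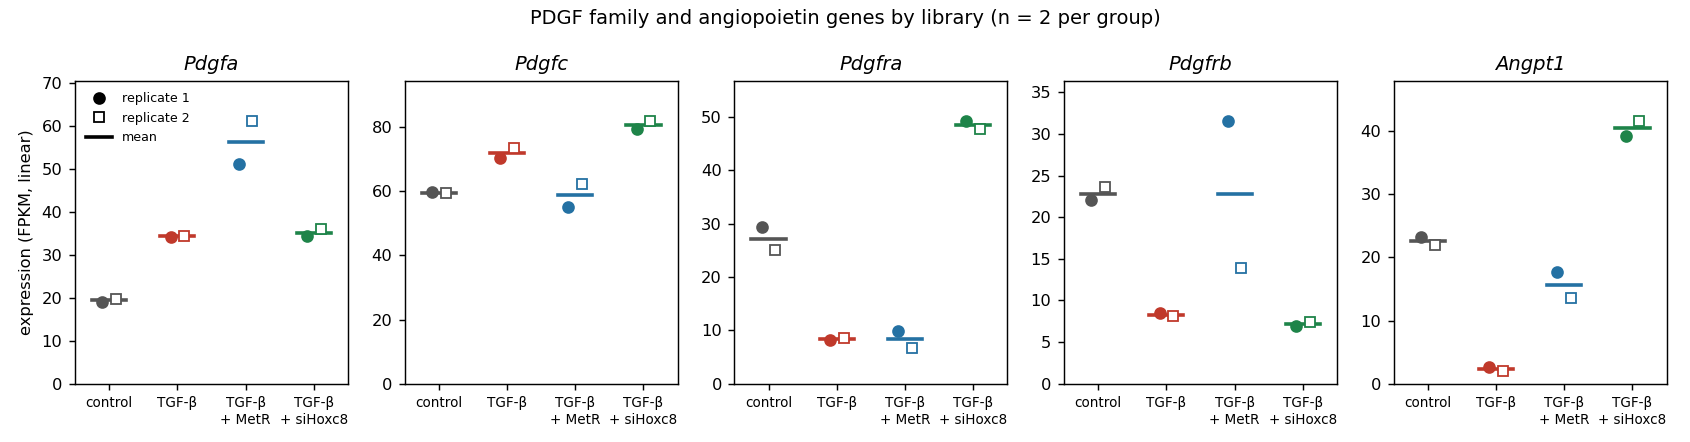
Expression of the 5 detected genes in each library, in FPKM on a linear axis from 0; circles are replicate 1, squares replicate 2 and bars the group mean (n = 2). Pdgfra and Angpt1 are highest with siHoxc8, Pdgfa is highest with MetR, and the MetR libraries are far apart for Pdgfrb (31.6 and 13.9 FPKM).

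The 3 remaining genes were at the limit of detection. Pdgfb, the B chain best known from platelets and endothelium, had 5 reads over all 8 libraries and at most 0.0558 FPKM. Pdgfd, the D chain, had 21 reads, of which 13 came from MetR replicate 1 and none from either siHoxc8 library, and at most 0.173 FPKM. Angpt2 had 15 reads and at most 0.142 FPKM. In these libraries 3 reads correspond to 0.0681 to 0.0907 FPKM for Pdgfb, 0.04 to 0.0533 for Pdgfd and 0.0609 to 0.0811 for Angpt2, a limit that covers counting error only. With the filter on low values removed, limma called 0 of the 18 differences of these genes over the 6 comparisons, with adjusted p-values from 0.145 to 1, so no difference in them was detectable at this depth.

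Pdgfa, whose product PDGF-A binds the α receptor alone, was raised by TGF-β and stood higher still under methionine restriction. Its level was 19.0 and 19.7 FPKM in control, 34.1 and 34.4 with TGF-β, 51.1 and 61.2 with MetR, and 34.4 and 35.9 with siHoxc8. Both MetR libraries lay above every other library, both control libraries lay below every other, and the TGF-β and siHoxc8 libraries stood between them within 2 FPKM of each other. In bulk RNA such as this, fewer cells of a type and less RNA per cell cannot be told apart, here and in all that follows.

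TGF-β raised Pdgfa 1.77-fold over control (log2 fold change 0.79 ± 0.11 SE, limma adjusted p = 0.00136). MetR raised it a further 1.64-fold over TGF-β alone (0.69 ± 0.11, adjusted p = 0.00148), which put it 2.9-fold above control (1.48 ± 0.11, adjusted p = 4.42e-05). The siRNA did not change it detectably: siHoxc8 against TGF-β gave 0.04 ± 0.11, with a 95% interval of -0.21 to 0.29 (adjusted p = 0.808). Against control it remained 1.81-fold higher with siHoxc8 (0.83 ± 0.11, adjusted p = 0.000748), and siHoxc8 stood below MetR by -0.66 ± 0.11 (adjusted p = 0.00173). In order of level the groups ran control, TGF-β, siHoxc8 and MetR, and TGF-β and siHoxc8 were the neighbours that did not differ beyond their spread.

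Pdgfc, the latent ligand that is opened by proteases before it binds the α receptor, varied least of the 5. It was at 59.7 and 59.4 FPKM in control, 70.3 and 73.3 with TGF-β, 55.2 and 62.3 with MetR, and 79.3 and 82.0 with siHoxc8. The siHoxc8 libraries were the highest, the TGF-β libraries came next, and the control libraries fell inside the range of the MetR pair.

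Pdgfc was 1.22-fold lower with MetR than with TGF-β (-0.29 ± 0.09, adjusted p = 0.033), a call that was lost in 10 of 18 alternatives, whose adjusted p ran from 0.0019 to 0.197. It was 1.35-fold higher with siHoxc8 than in control (0.43 ± 0.09, adjusted p = 0.00697), lost when control replicate 1, control replicate 2 or siHoxc8 replicate 2 was left out (range over alternatives 8.8e-05 to 0.0634), and higher with siHoxc8 than with MetR by 0.45 ± 0.09 (adjusted p = 0.00493). For TGF-β against control the difference was 0.27 ± 0.09 with an interval of 0.05 to 0.48 and missed the threshold (adjusted p = 0.0566). It passed in 6 of 18 alternatives, with 0.49 and adjusted p = 0.00335 after median ratio rescaling (range 0.00335 to 0.227). Neither siHoxc8 against TGF-β (0.17 ± 0.09, interval -0.05 to 0.38, adjusted p = 0.188) nor MetR against control (-0.02 ± 0.09, interval -0.24 to 0.20, adjusted p = 0.86) passed.

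The balance of the α-receptor ligands shifted within each library. Pdgfc exceeded Pdgfa 3.14-fold and 3.01-fold in the control libraries, 2.06-fold and 2.13-fold with TGF-β, and 2.31-fold and 2.28-fold with siHoxc8. With MetR the levels were nearly equal, at 1.08-fold and 1.02-fold. The ratio fell from control to TGF-β and again to MetR with no overlap between those groups, while Pdgfc itself stayed between 55.2 and 82.0 FPKM in all 8 libraries. The ratios were not tested.

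Pdgfra, the α receptor and a marker of interstitial fibroblasts, was lowered by TGF-β, stayed at that level under MetR, and was above control when Hoxc8 was targeted. It was at 29.4 and 25 FPKM in control, 8.24 and 8.60 with TGF-β, 9.97 and 6.74 with MetR, and 49.4 and 47.8 with siHoxc8. The TGF-β pair lay inside the range of the MetR pair, control was clear of both, and the siHoxc8 pair was clear of all other libraries.

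TGF-β lowered Pdgfra 3.23-fold against control (-1.58 ± 0.17, adjusted p = 0.000502). MetR against TGF-β gave -0.03 ± 0.17, with an interval of -0.43 to 0.36 (adjusted p = 0.886), and against control MetR was at 30.7% of the level (-1.61 ± 0.17, adjusted p = 0.000191). With siHoxc8 the level was 5.77-fold that with TGF-β alone (2.40 ± 0.17, adjusted p = 7.96e-05), which ranked 69 from the top among 12315 tested genes. That was also 1.78-fold above control (0.82 ± 0.17, adjusted p = 0.00572) and 5.81-fold above MetR (2.43 ± 0.17, adjusted p = 4.35e-05). From lowest to highest the groups ran MetR, TGF-β, control and siHoxc8, and only MetR and TGF-β did not differ beyond their spread.

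Pdgfrb, the β receptor and a marker of pericytes and mesangial cells, gave the opposite picture between the treatments. It was at 22.0 and 23.6 FPKM in control, 8.44 and 8.17 with TGF-β, 31.6 and 13.9 with MetR, and 6.91 and 7.44 with siHoxc8. All TGF-β and siHoxc8 libraries lay below every control and MetR library, and the control libraries fell between the MetR replicates, which differed 2.28-fold from each other.

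TGF-β lowered Pdgfrb 2.75-fold against control (-1.36 ± 0.31, adjusted p = 0.012). The call was lost when either control library or either TGF-β library was left out, where the change was -1.40 to -1.31. The SE of 0.31 for this gene comes from the fit of all 8 libraries, in which the MetR pair was far apart. With only control and TGF-β fitted, the change was -1.36 ± 0.09 (limma adjusted p = 0.000379). MetR stood 2.74-fold above TGF-β (1.24 ± 0.31, adjusted p = 0.0114), a call lost without TGF-β replicate 1 or 2 (range 0.000104 to 0.0634). Its size rested on the MetR library kept, at 0.68 without MetR replicate 1 and 1.81 without MetR replicate 2. With siHoxc8 it did not differ detectably from TGF-β alone (-0.19 ± 0.31, interval -0.91 to 0.53, adjusted p = 0.651), was at 31.5% of control (-1.54 ± 0.31, adjusted p = 0.00503) and was 3.17-fold below MetR (-1.43 ± 0.31, adjusted p = 0.00609). The last difference was -0.87 without MetR replicate 1 and -2.0 without MetR replicate 2.

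Against control, MetR gave -0.11 ± 0.31 for Pdgfrb (interval -0.83 to 0.61, adjusted p = 0.78), and the direction depended on 1 library. It was -0.68 without MetR replicate 1 (adjusted p = 0.00142) and 0.45 without MetR replicate 2 (adjusted p = 0.00855). Lum and Col3a1, fibroblast markers picked after their values were seen, split the same way. Lum was at 36.5 FPKM and Col3a1 at 505.5 FPKM in MetR replicate 1, against 6.53 and 105.3 FPKM in the other MetR library. Col1a1 was at 4837.5 and 2787.7 FPKM in MetR replicates 1 and 2, but Vim was at 2860.8 and 2707.5 FPKM. Dcn was at 0.32 to 0.40 FPKM in the MetR libraries, and Fap and Thy1 were listed at 0. Of the 12315 tested genes, 372 differed at least 2-fold in FPKM + 1 between the MetR replicates. The numbers were 152 in control, 162 with TGF-β and 166 with siHoxc8. The part of these markers in the Pdgfrb values was not tested.

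The receptor balance differed most between the combined treatments. Pdgfra and Pdgfrb were close to equal in control, where the ratio of Pdgfra to Pdgfrb was 1.34 and 1.06, and with TGF-β, where it was 0.977 and 1.05, so TGF-β lowered both receptors with little change in their ratio. With siHoxc8 the ratio was 7.14 and 6.42. With MetR it was turned round, with Pdgfrb 3.17-fold and 2.06-fold above Pdgfra. The MetR pair lay below and the siHoxc8 pair above all other libraries, and no test was made of the ratio.

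**Figure D2:**
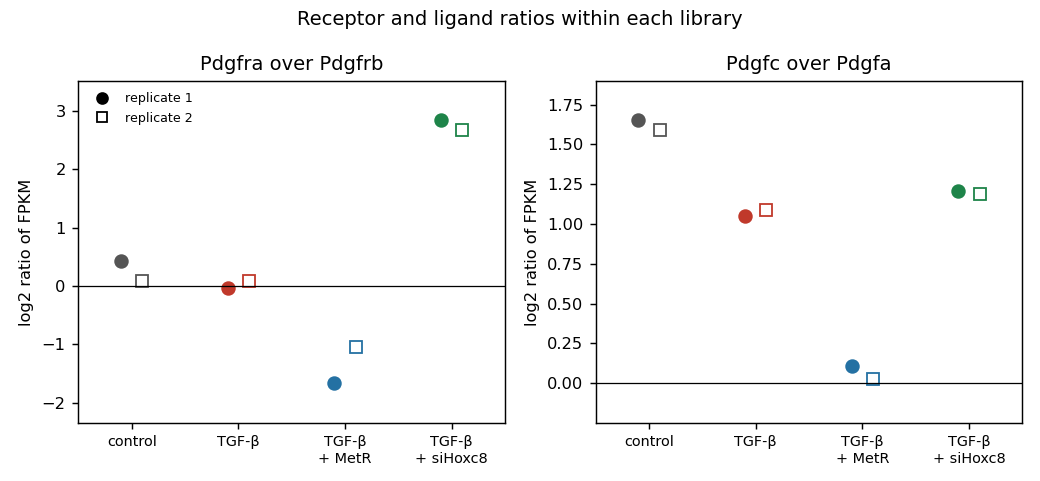
Log2 ratio of FPKM values within each library, for Pdgfra over Pdgfrb (left) and Pdgfc over Pdgfa (right); circles are replicate 1, squares replicate 2, and 0 marks equal levels. The receptor ratio is 2.84 and 2.68 with siHoxc8 and -1.67 and -1.04 with MetR, and the ligand ratio is closest to 0 with MetR (0.11 and 0.03).

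Angpt1, the vessel-stabilising ligand of Tek, was nearly lost with TGF-β and returned under both combined treatments, and in the 3 main comparisons its differences were the largest of the 5 genes. It was at 23.2 and 21.9 FPKM in control, 2.61 and 2.0 with TGF-β, 17.6 and 13.6 with MetR, and 39.2 and 41.7 with siHoxc8. The groups did not overlap, and from lowest to highest they ran TGF-β, MetR, control and siHoxc8. The lowest library still held 62 reads of the gene.

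TGF-β lowered Angpt1 9.79-fold against control (-2.84 ± 0.15, adjusted p = 4.01e-05), rank 37 from the lowest of all tested genes. MetR raised it 6.78-fold over TGF-β (2.33 ± 0.15, adjusted p = 6.91e-05) and siHoxc8 17.6-fold (3.65 ± 0.15, adjusted p = 2.11e-05), rank 62 and rank 12 from the highest. With MetR it stood at 69.2% of control (-0.51 ± 0.15, adjusted p = 0.0196), a call lost without control replicate 1, control replicate 2 or MetR replicate 2 (range 0.00404 to 0.103). With siHoxc8 it was 1.79-fold above control (0.81 ± 0.15, adjusted p = 0.00336) and 2.59-fold above MetR (1.33 ± 0.15, adjusted p = 0.000294).

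Tek, the kinase receptor of Angpt1, was below 1 FPKM in every library, and its relative Tie1 was listed at 0 in all 8. Tek was at 0.428 and 0.506 FPKM in control, 0.0541 and 0.120 with TGF-β, 0.674 and 0.865 with MetR, and 0.246 and 0.254 with siHoxc8, from 258 reads in all. Tek did not reach the filter and was not tested, and its groups did not overlap. Angpt4, another Tek ligand and not one of the 8 genes, was at 29.0 and 28.4 FPKM in control, 48.5 and 44.8 with TGF-β, 25.4 and 17.3 with MetR, and 29.8 and 31.2 with siHoxc8. It moved against Angpt1: it rose with TGF-β (0.68 ± 0.16, adjusted p = 0.0146) and fell from there with MetR (-1.11 ± 0.16, adjusted p = 0.00117) and with siHoxc8 (-0.60 ± 0.16, adjusted p = 0.0211).

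Counted over the genes, TGF-β against control raised 1 and lowered 3 of the 5 tested members, while 38.9% of all 12315 tested genes were called in that comparison (10.3% raised and 28.6% lowered). The median log2 fold change was -1.36 for the 5 genes and -0.19 for all tested genes. MetR against TGF-β raised 3 and lowered 1 of 5, beside 53.9% of all genes called (34.8% raised and 19.0% lowered) and medians of 0.69 and 0.18. Without TGF-β replicate 1 or TGF-β replicate 2 only 2 of the 5 remained past the threshold in this comparison. The comparison of siHoxc8 with TGF-β raised 2 and lowered 0 of 5 (3 neither), beside 43.8% called (28.1% raised and 15.7% lowered) and medians of 0.17 and 0.13. The TGF-β libraries serve in all 3 comparisons, so these counts are not independent of each other.

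Against control, MetR raised 1 and lowered 2 of the 5 genes, beside 57.3% of all genes called (28.0% raised and 29.3% lowered). The same count for siHoxc8 against control was 4 raised and 1 lowered, beside 48.7% called (21.7% raised and 27.0% lowered). Between the combined treatments 3 were higher and 2 lower with siHoxc8, beside 54.2% called (24.9% higher and 29.3% lower). With calls this common across the table, the counts do not set the 5 genes apart. Libraries of the groups compared did not overlap for 5, 4 and 4 of the 5 genes in the 3 main comparisons, beside 75.7%, 73.0% and 76.8% of all tested genes. For MetR against control, siHoxc8 against control and siHoxc8 against MetR the numbers were 3, 5 and 5 of 5, beside 79.1%, 84.0% and 77.0%.

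The scaling of the libraries bears on these counts. After rescaling by median ratios the median over all genes moved from -0.19, 0.18 and 0.13 to 0.01, -0.00 and -0.01 in the 3 main comparisons, and raised genes went from 26.5% to 52.9% of calls for TGF-β against control, from 64.7% to 48.9% for MetR against TGF-β and from 64.1% to 48.4% for siHoxc8 against TGF-β. Relative to that shift Angpt1 was at -2.65, 2.15 and 3.53, Pdgfra at -1.36, -0.23 and 2.24, and Pdgfrb at -1.14, 1.04 and -0.34. Pdgfa was at 1.02, 0.48 and -0.13 and Pdgfc at 0.49, -0.50 and -0.00, so their small differences between siHoxc8 and TGF-β changed sign.

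**Figure D3:**
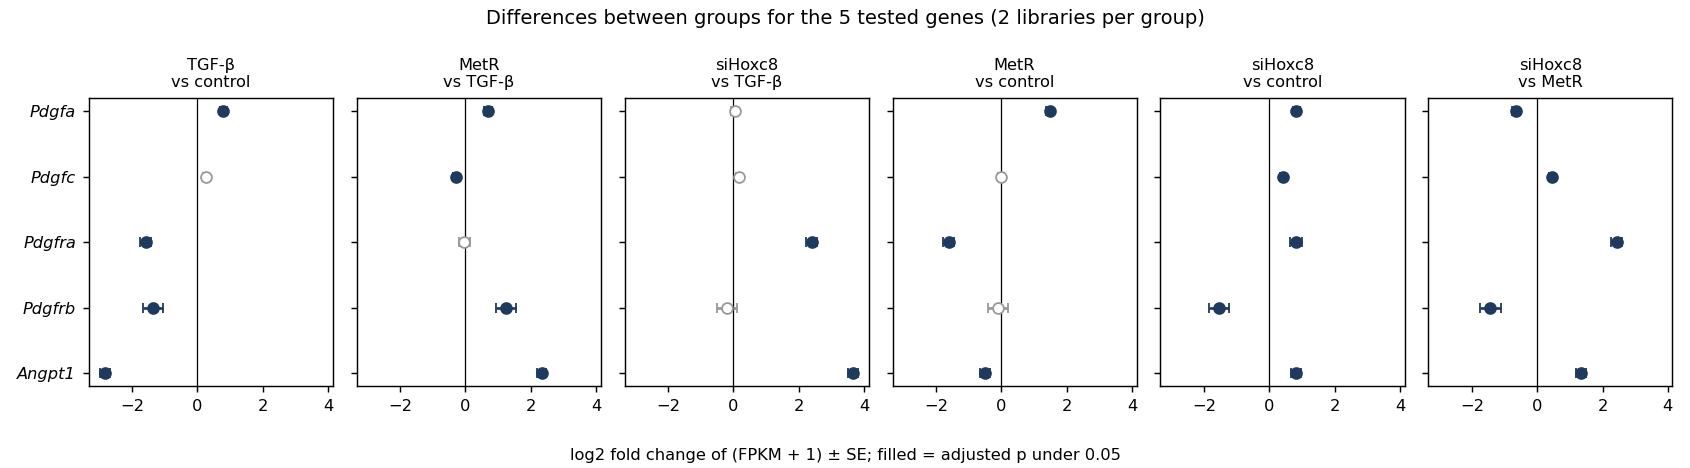
Log2 fold change of (FPKM + 1) ± SE from limma for the 5 tested genes in the 6 comparisons; filled points passed an adjusted p of 0.05. Angpt1 runs from -2.84 with TGF-β against control to 3.65 with siHoxc8 against TGF-β, Pdgfra is at 2.40 with siHoxc8 and at -0.03 with MetR, and Pdgfrb has the widest SE (0.31).

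Genes that act around the PDGF receptors were followed in 4 lists. The counts below stand beside the shares over all tested genes, which were 10.3% raised and 28.6% lowered for TGF-β against control (median -0.19), 34.8% and 19.0% for MetR against TGF-β (median 0.18), and 28.1% and 15.7% for siHoxc8 against TGF-β (median 0.13). In the list of ligand processing and binding, 3 of 10 tested genes rose and 2 fell with TGF-β (median 0.05). Among the rises was the protease gene Adamts1, from a mean of 55.4 to 348.3 FPKM (2.63 ± 0.40, adjusted p = 0.00216). MetR and siHoxc8 each raised 2 and lowered 3 of the 10 against TGF-β (medians -0.19 and -0.18, beside 0.18 and 0.13 over all genes).

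Plat, the tissue plasminogen activator that can open latent PDGF-C, was at 42.9 and 40.5 FPKM in control, 19.0 and 22.8 with TGF-β, 18.4 and 15.6 with MetR, and 10.6 and 8.86 with siHoxc8. Both siHoxc8 libraries lay below all others, and the difference from TGF-β alone was -1.03 ± 0.14 (adjusted p = 0.00104). Sparc, a matrix protein that binds PDGF, was lowered by MetR from a mean of 2056.5 to 492.2 FPKM (-2.34 ± 0.49, adjusted p = 0.00553), and the MetR libraries stood far apart, at 772.1 and 212.3 FPKM.

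Of the 28 genes that relay the receptor signal, 4 rose and 5 fell with TGF-β (median -0.07). The regulatory subunit of phosphoinositide 3-kinase Pik3r1 fell from 27.6 to 8.04 FPKM in the mean (-1.67 ± 0.13, adjusted p = 0.000156), and Mapk3, which encodes ERK1, by -0.95 ± 0.16 (adjusted p = 0.00353). MetR raised 13 and lowered 3 of the 28 against TGF-β, beside 34.8% and 19.0% of all genes (medians 0.24 and 0.18). Among the raised genes were the kinase Akt2 (1.17 ± 0.10, adjusted p = 0.000172) and the catalytic subunit Pik3cb (1.13 ± 0.15, adjusted p = 0.000893). The siRNA raised 7 and lowered 4, beside 28.1% and 15.7% of all genes (medians 0.07 and 0.13), with the docking protein Gab1 at 1.08 ± 0.19 (adjusted p = 0.003) and the phospholipase Plcg1 at -0.65 ± 0.13 (adjusted p = 0.00667).

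Among 17 genes that dampen receptor signalling, TGF-β raised 2, including the ERK phosphatase Dusp6 (1.26 ± 0.28, adjusted p = 0.011), and lowered 3, including Cav1, the coat protein of caveolae (-1.33 ± 0.13, adjusted p = 0.000399), with a median of -0.16. Against TGF-β, MetR raised 8 and lowered 0 of 17 (9 neither, median 0.38), where 34.8% of all genes were raised and 19.0% lowered (median 0.18). With siHoxc8 9 were raised and 2 lowered (median 0.69), where 28.1% of all genes were raised and 15.7% lowered (median 0.13). The feedback inhibitor Spry2 rose in both, by 1.69 ± 0.31 with MetR (adjusted p = 0.00318) and 1.90 ± 0.31 with siHoxc8 (adjusted p = 0.0025), although its MetR libraries ranged from 14.3 to 32.3 FPKM. Dusp6 rose with MetR (1.54 ± 0.28, adjusted p = 0.00292) and the inhibitor Spred2 with siHoxc8 (1.26 ± 0.10, adjusted p = 0.000137).

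Of 16 genes of the early response to growth factors, 7 rose and 0 fell with TGF-β (9 neither, median 0.47), beside 10.3% raised and 28.6% lowered of all genes (median -0.19). The largest rises were Ier3 (2.44 ± 0.14, adjusted p = 5.95e-05) and the chemokine Ccl2 (1.51 ± 0.14, adjusted p = 0.000329). MetR raised 12 and lowered 3 against TGF-β (median 1.03), beside 34.8% and 19.0% of all genes (median 0.18). Its largest rises were the transcription factor Egr1, from 2.95 to 46.1 FPKM in the mean (3.56 ± 0.32, adjusted p = 0.000181), and Ier2 (3.06 ± 0.37, adjusted p = 0.000516), at 131.5 to 325 FPKM in the MetR libraries. With siHoxc8, 11 rose and 3 fell (median 0.65), beside 28.1% and 15.7% of all genes (median 0.13). Fosl1 of the AP-1 family rose by 2.01 ± 0.41 (adjusted p = 0.00602), while Ccl2 dropped to 53.3 from 463 FPKM (-3.10 ± 0.14, adjusted p = 2.38e-05). These genes answer to many signals besides PDGF, and receptor activity was not measured.

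**Figure D4:**
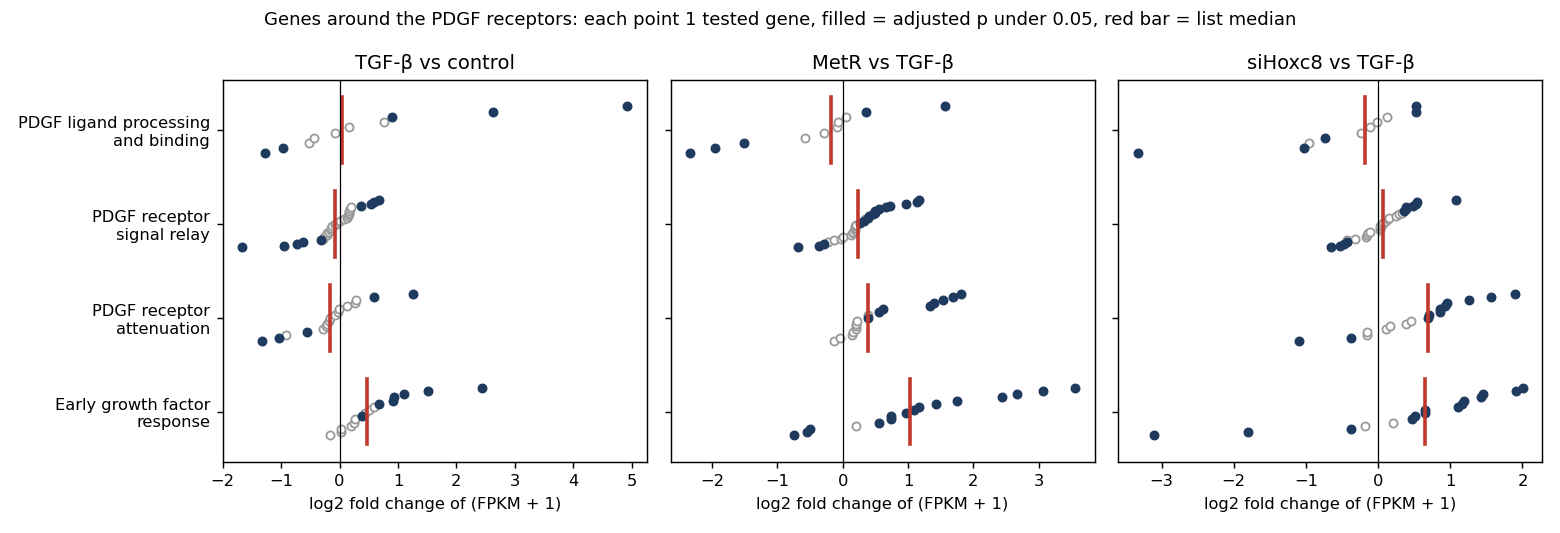
Log2 fold change of (FPKM + 1) for each tested gene of the 4 lists around the PDGF receptors in the 3 main comparisons; filled points passed an adjusted p of 0.05 and the red bar is the list median. Early growth factor response genes have a median of 1.03 with MetR and 0.65 with siHoxc8 against TGF-β.

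Partners of the angiopoietins formed another list, in which 5 of 10 genes passed the filter. With TGF-β 5 of these 5 rose (median 0.68), a count over genes that passed the filter only, beside 10.3% of all tested genes. They included the integrin chains Itgav (0.89 ± 0.11, adjusted p = 0.0011) and Itga5 (0.83 ± 0.09, adjusted p = 0.000528), which can bind angiopoietins. The others were Angpt4, described above, Itgb1, and Foxo1, which was close to the threshold (limma adjusted p = 0.0498). Genes below the filter did not all rise. From control to TGF-β the mean of Tek went from 0.467 to 0.0872 FPKM and that of Dok2 from 1.03 to 0.414, while Ptprb went from 0.396 to 0.609. Svep1 and Tie1 were at or near 0. Against TGF-β, MetR lowered 2 and raised 0 (3 neither, beside 19.0% lowered and 34.8% raised of all genes), Itga5 by -0.30 ± 0.09 (adjusted p = 0.0237), and siHoxc8 lowered 3 and raised 0 (2 neither, beside 15.7% lowered and 28.1% raised), Itgav by -0.88 ± 0.11 (adjusted p = 0.000895).

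The genes whose levels ran most like each member were found by Pearson's r of log2(FPKM + 1) over the 8 libraries among 8427 genes. Because 8 libraries in 4 groups share their treatments and so many genes were searched, high values of r are a description only. For Pdgfa they were Stim2 (0.992), Dda1 (0.990) and Ubtd1 (0.990), which like it were highest with MetR. For Pdgfra they were Ncapg (0.991), a condensin subunit at 13.6 FPKM with siHoxc8 and 1.90 with TGF-β, Ncaph2 (0.989) and Atp6v0a2 (0.988).

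For Pdgfrb the closest were Serpinb7 and Chrd (both 0.980) and Glul (0.979). Serpinb7 was at 29.5 FPKM in control and 23.3 with MetR, but at 2.14 with TGF-β and 1.10 with siHoxc8. For Angpt1 they were Xpc (0.989), Ptch1 (0.988) and Zscan22 (0.985), and Ptch1, a receptor of hedgehog proteins, was at 2.35 FPKM with TGF-β and 9.1 with siHoxc8. For Pdgfc they were Esyt1 (0.994), Gars (0.991) and Ppic (0.978).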

How the data were processed

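The authors deposited the expression of the 8 RNA-seq libraries as FPKM, per the labels. The submitters' processing notes name featureCounts, Bowtie2 2.3.5.1, deepTools, Trim Galore and build rn6 without their roles. For the annotation and the strand setting the sources used here give nothing. Values were whole multiples of 1 read for 100.0% of 19435 genes above 0 (tolerance 0.02 reads). The check took the smallest number of reads that fit, so a gene above 0 in only 1 library passes by construction. The share therefore does not by itself show that the reads were recovered exactly. A 0 is called listed at 0, since all 13 mitochondrial protein genes have it.

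Differences were tested on log2(FPKM + 1), which understates changes of low genes, with limma 3.58.1 in R 4.3.3, as 1 model of all 8 libraries with a variance trend. The test covered the 12315 genes that reached 1 FPKM in 2 or more libraries, p-values are two-sided and Benjamini-Hochberg adjusted within each of 6 comparisons, and the threshold was 0.05. In simulated data for TGF-β against control (11917 genes, 200 changed) limma recovered 52% of genes changed 2-fold and 92.9% of those changed 4-fold. Of its calls there 5.88% were false. The simulation gave all groups the same spread and changed far fewer genes than were called in the data, so these shares need not hold for the data. Folds are ratios of mean FPKM. Promoter sequences are from RefSeq, build GRCr8.

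The 8 genes, the lists and the alternatives were chosen with earlier results of these data known. From each list, up to 2 called genes with the largest change and at least 5 FPKM are named in each main comparison, beside Hoxc8, Tek and Tie1, and 1 such gene is not reported here. For likeness the 3 highest correlations among genes with a mean of at least 5 FPKM are named. Angpt4 across libraries, Lum, Col3a1 and Acta2 were chosen after their values were seen.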

Additional observations from a re-analysis of the deposited data

How the results depend on the processing

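The 5 tested genes gave 30 differences, and each was recomputed under 18 alternatives. Of these 540 values 505 kept direction and side of the threshold, 22 lost the call, 7 gained it and 6 changed sign. Of the 23 called differences 18 kept their call in every alternative run and 0 changed sign. The changes of sign were among differences not called in the main fit. With rescaling they were siHoxc8 against TGF-β for Pdgfa (-0.13 after median ratio rescaling, -0.07 after quantile normalization) and Pdgfc (-0.00 after median ratio rescaling). With 1 library left out at a time, MetR against TGF-β changed sign for Pdgfra (-0.28 without MetR replicate 1 to 0.22 without MetR replicate 2). MetR against control did so for Pdgfc (-0.11 without MetR replicate 2 to 0.07 without MetR replicate 1). It also did so for Pdgfrb, and there the values lay well away from 0 on both sides (-0.68 without MetR replicate 1 to 0.45 without MetR replicate 2). The cause was not tested.

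Leaving out 1 library at a time, all genes called ranged from 2176 (without control replicate 1; 2339 without replicate 2) to 6314 for TGF-β against control, from 3078 (without siHoxc8 replicate 1; 3283 without replicate 2) to 6749 for siHoxc8 against TGF-β, and from 3727 (without control replicate 1; 3799 without replicate 2) to 7201 for siHoxc8 against control. The last was 3813 and 3942 without siHoxc8 replicate 1 and 2. The members called for MetR against TGF-β ranged from 2 (without TGF-β replicate 1 or 2) to 4. These fits have fewer samples, and a group left with 1 library is assumed to vary like the others. With a replicate block 4750 genes were called for TGF-β against control in place of 4792, and no member call changed. Same-numbered libraries deviated together with a correlation of 0.20 for TGF-β and MetR, and of -0.02 to 0.02 for the other pairs of groups. With 2 libraries a group this check cannot decide whether the numbers pair them. An added alternative chosen after seeing the data, limma-voom on the recovered reads, called 1279 raised and 3637 lowered genes in that comparison. DESeq2 and edgeR were not run, because the values are FPKM. The SD between replicates was 0.307 on the log2 scale for MetR and 0.177 to 0.223 for the other groups.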

Other observations

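Of 7 genes for the other class III receptor kinases and their ligands, 3 were tested (Kitlg, Csf1 and Flt3lg). With TGF-β 0 rose and 2 fell (1 neither), beside 10.3% raised and 28.6% lowered of all tested genes. Against TGF-β 2 rose and 0 fell with MetR (1 neither), beside 34.8% raised and 19.0% lowered. With siHoxc8 1 rose and 1 fell against TGF-β (1 neither), beside 28.1% raised and 15.7% lowered. Kitlg, the ligand of the receptor Kit, was at 23.8 and 20.9 FPKM in control, 3.31 and 3.16 with TGF-β, 15.9 and 20.5 with MetR, and 13.6 and 12.4 with siHoxc8. It fell with TGF-β (-2.46 ± 0.14, limma adjusted p = 5.95e-05) and rose against TGF-β with MetR (2.17 ± 0.14, adjusted p = 7.03e-05) and siHoxc8 (1.73 ± 0.14, adjusted p = 0.000133). Csf1, the macrophage growth factor, also fell with TGF-β (-1.17 ± 0.12, adjusted p = 0.000394), and against TGF-β it rose with MetR (0.34 ± 0.12, adjusted p = 0.0394) and fell with siHoxc8 (-1.06 ± 0.12, adjusted p = 0.000448).

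Of the VEGF family 5 of 9 genes were tested, and 0 rose and 1 fell with TGF-β (4 neither): Vegfc, a lymphatic growth factor, from 45.4 to 18.6 FPKM in the mean (-1.25 ± 0.11, adjusted p = 0.000223). Against TGF-β, MetR raised 2 of the 5, Vegfa (0.64 ± 0.11, adjusted p = 0.00278) and Vegfc (0.44 ± 0.11, adjusted p = 0.0107), and lowered 2, the co-receptor Nrp2 (-1.60 ± 0.18, adjusted p = 0.000408) and Vegfb (-0.69 ± 0.10, adjusted p = 0.0011). With siHoxc8 0 rose and 2 fell (3 neither), Vegfb (-1.75 ± 0.10, adjusted p = 3.57e-05) and Vegfc (-0.61 ± 0.11, adjusted p = 0.00328). Of all tested genes 10.3% were raised and 28.6% lowered with TGF-β. Against TGF-β the shares were 34.8% raised and 19.0% lowered with MetR, and 28.1% and 15.7% with siHoxc8.

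Among 7 angiopoietin-like genes 2 were tested, and against TGF-β they went opposite ways with MetR. Angptl2 fell from a mean of 97.7 to 5.61 FPKM, with the MetR libraries at 8.16 and 3.06 FPKM (-4.01 ± 0.32, adjusted p = 0.000124). Angptl4 rose from 0.0648 to 2.02 FPKM (1.5 ± 0.18, adjusted p = 0.000497). It passed the filter only through the MetR libraries, at 1.76 and 2.27 FPKM, and did not exceed 0.268 FPKM in control or with TGF-β. Its being tested thus depended on the rise, and the test adds no separate support for it. Vegfa, Flt3lg and Angptl4 were named after their values were seen.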
